A study of Mus musculus with 14 samples.

Results

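Genes of lipid droplets and mitochondrial fat oxidation were followed in mouse oocytes, 9 in all: Plin2, Plin3, Dgat1, Dgat2, Pnpla2, Cpt1a, Cpt2, Acadvl and Hadha. They were chosen by symbol, with earlier results of these data known. All 9 had a row in both deposited count tables, which together hold 18507 genes. The oocytes were at the germinal vesicle (GV) stage, the prophase arrest in which fully grown oocytes wait for the signal to mature, or had been ovulated. Both genotypes carried floxed Mff alleles: the control, WT, is Mff fl/fl without Cre, and the knockout, CKO, is Mff fl/fl with Gdf9-Cre. Gdf9-Cre expresses Cre recombinase in oocytes and is known to be active from early follicles on, before both stages studied here. When Mff was deleted in these oocytes was not measured. Each genotype had 4 libraries at the GV stage and 3 after ovulation, which makes 14. Neither the age of the mice nor how many oocytes or animals went into a library is given. P-values therefore measure only the spread between these libraries, and fewer oocytes and less RNA per oocyte cannot be told apart from these values.

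Lipid droplets store fatty acids as triacylglycerol inside a single layer of phospholipid coated by perilipin proteins. Acyltransferases of the endoplasmic reticulum fill the droplet and lipases empty it. The released fatty acids, bound to coenzyme A, enter mitochondria through the carnitine shuttle and are shortened in repeated rounds by the beta-oxidation enzymes, a process known to support meiotic maturation of the mouse oocyte. Mff, the gene deleted here, encodes a receptor on the outer mitochondrial membrane that recruits the fission GTPase Drp1.

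Levels across libraries are given as CPM, counts scaled to the library total after TMM normalisation in one fit of all 14 libraries, and levels between genes as the deposited FPKM, which accounts for transcript length. Deposited totals were 26575593 to 28847424 counts per library. Mff was at 719 ± 200 CPM (SD, n = 4) in GV WT and 38.2 ± 6.12 CPM (n = 4) in GV CKO, and at 440 ± 218 CPM (n = 3) in ovulated WT and 46.1 ± 12.2 CPM (n = 3) in ovulated CKO, as the labels say. Unlike the Mff levels, the marker levels that follow are CPM without TMM normalisation, with counts scaled to the deposited library total only. They are therefore not on the same scale as the other CPM values. Oocyte markers summed to 20727 to 41010 CPM. The 22 granulosa and cumulus markers in the GV table summed to 52.6 to 109 CPM and the 15 in the ovulated table to 90.4 to 119 CPM, most of it Cyp19a1 (32.4 to 91.6 CPM). Of the other markers of that list Nr5a2 reached 17.8 CPM, Cyp11a1 15.0, Kitl 14.6 and Inha 11.5, while the follicle stimulating hormone receptor gene Fshr was at 0 to 1.29 CPM. The blood, immune and stromal markers summed to 24.5 to 46.6 CPM at the GV stage and 59.9 to 145 CPM after ovulation, most of it Pecam1 (16.2 to 130 CPM), and the adipocyte markers to at most 0.41 CPM. On the leading principal component of the GV stage WT 2, CKO 1 and CKO 2 lay away from the rest, and their 100 most abundant genes held 35.2% to 42.4% of counts against 48.2% to 51.1% in the other 5. That share was 25.0% to 35.4% after ovulation, lowest in CKO 2 and highest in WT 3. The part of these differences in the results was not tested.

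At the GV stage Cpt2 had the highest mean FPKM of the 9 genes and Cpt1a, which encodes the entry enzyme, the lowest. In GV WT oocytes Cpt2 was at 27.0 ± 5.06 FPKM (SD, n = 4), Hadha at 18.3 ± 3.22 FPKM and Dgat2 at 15.7 ± 3.98 FPKM. Plin3 followed at 7.19 ± 2.02 FPKM, then Plin2 at 4.63 ± 0.15 FPKM and Pnpla2 at 4.30 ± 1.34 FPKM. Acadvl was at 1.48 ± 0.42 FPKM, Dgat1 at 1.27 ± 0.46 FPKM and Cpt1a at 0.09 ± 0.06 FPKM. Among these neighbours Hadha and Dgat2, and Acadvl and Dgat1, lay within one another's SD, and Plin2 lay within the wider SD of Pnpla2. In rank Cpt2 sat at a median percentile of 85.6 among all genes of a GV WT library and Cpt1a at 19.8. After ovulation the order was led by Dgat2 (18.5 ± 3.12 FPKM, n = 3) and Plin3 (16.2 ± 6.15 FPKM), which lay within one another's SD. Cpt2 at 7.01 ± 3.49 FPKM and Hadha at 5.63 ± 0.43 FPKM, which differed by less than the SD of Cpt2, came next in ovulated WT. Plin2, Dgat1 and Pnpla2 lay together at 0.80 to 0.89 FPKM, Acadvl was at 0.30 ± 0.26 FPKM and Cpt1a at 0.033 ± 0.021 FPKM.

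**Figure D1:**
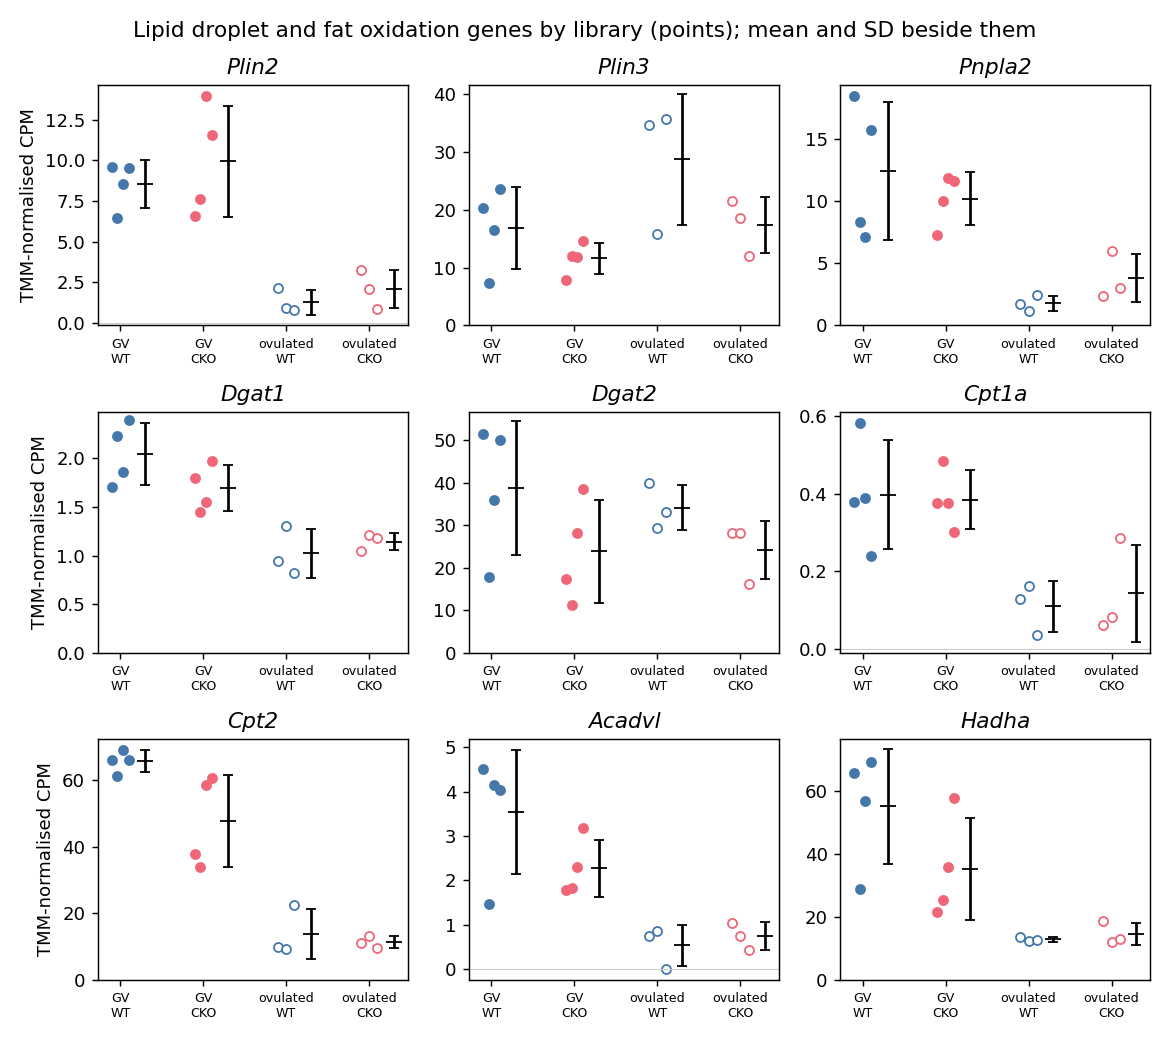
TMM-normalised CPM of each of the 9 genes (linear axes from 0) in the 14 libraries; points are libraries (filled: GV, open: ovulated; blue: WT, red: CKO) and the bar beside them is mean ± SD. The ovulated libraries of Plin2, Pnpla2, Dgat1, Cpt1a, Cpt2, Acadvl and Hadha all lie below the GV libraries of the same genotype, while those of Plin3 and Dgat2 overlap them.

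From GV to ovulated WT oocytes, 7 of the 9 genes fell and none rose. The set included the droplet coat gene Plin2, the lipase gene Pnpla2, the acyltransferase gene Dgat1 and the 4 genes of import and oxidation, Cpt1a, Cpt2, Acadvl and Hadha; Plin3 and Dgat2 did not pass the test. Over all 13199 genes tested with edgeR's quasi-likelihood test, 36.2% were called lower (adjusted p under 0.05), 30.3% higher and 66.4% in either direction. The median log2 fold change was -2.20 over the 9 genes and -0.17 over all genes. In CKO oocytes 5 of the 9 fell (Plin2, Pnpla2, Cpt2, Acadvl and Hadha) and none rose, beside 31.2% of all genes called lower, 23.2% called higher and 54.4% in either direction. The median was -1.55 over the 9 genes and -0.19 over all genes. Ovulated and GV libraries did not overlap for 7 of the 9 genes in WT, beside 68.9% of all genes, nor for 7 of the 9 in CKO, beside 53.0%. The stages come from separate tables, so stage and table cannot be told apart. Falls and rises, here and below, are relative to the other transcripts of a library, since counts were scaled to library totals. The absolute amount per oocyte cannot be read from them. Removing the trend of fold change with gene length moved the median of all genes to 0.12 in WT and 0.09 in CKO, and the genes called higher in CKO from 3060 of 7183 called to 3855 of 7206.

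**Figure D2:**
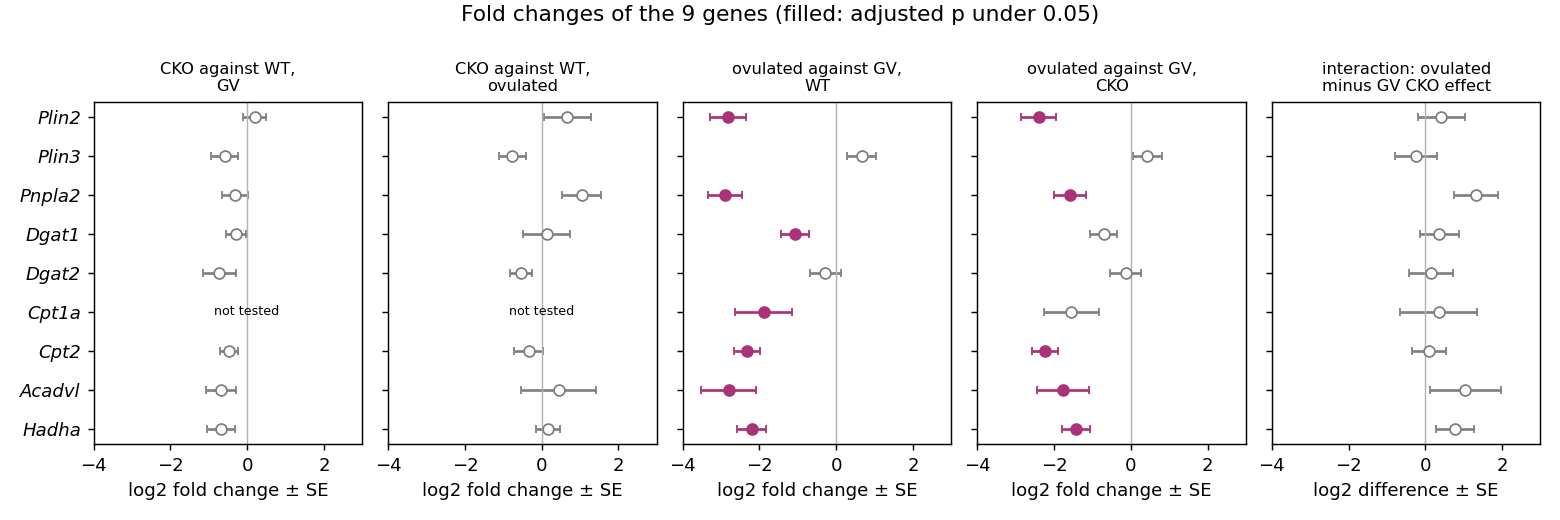
Log2 fold change ± SE of the 9 genes in each comparison (filled: adjusted p under 0.05, edgeR's quasi-likelihood test, adjusted over all genes). In the stage comparisons 7 genes in WT and 5 in CKO are filled and lie left of 0, while none is filled in the genotype comparisons or in the interaction, where a positive value means a higher CKO to WT ratio after ovulation.

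Plin2 (chr4:86626910-86670217; these coordinates and those that follow span the gene in GRCm38, from RefSeq) encodes the perilipin that coats droplets in most cells outside fat tissue. Plin3 (chr17:56278962-56290511) encodes an exchangeable perilipin that moves between cytosol and nascent droplets. Plin2 was at 9.57, 6.43, 8.57 and 9.54 CPM in GV WT libraries 1 to 4 and at 2.17, 0.913 and 0.787 CPM in ovulated WT 1 to 3. In CKO it was at 6.61, 7.63, 14.0 and 11.6 CPM at the GV stage and at 3.28, 2.12 and 0.893 CPM after ovulation. Every ovulated library was thus below every GV library, with CKO 3 and CKO 4 the highest at the GV stage. The fall was 7.01-fold in WT (log2 fold change -2.81 ± 0.47 SE, adjusted p = 5.02e-05) and 5.26-fold in CKO (-2.40 ± 0.46, adjusted p = 0.0003).

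Plin3 went the other way in its means. It was at 20.4, 7.27, 16.5 and 23.6 CPM in GV WT and at 34.7, 15.7 and 35.8 CPM in ovulated WT, and at 7.92, 12.1, 11.8 and 14.6 CPM in GV CKO and 21.5, 18.7 and 12.0 CPM in ovulated CKO. Libraries of the stages overlapped in both genotypes. The log2 differences were 0.67 ± 0.38 SE in WT (adjusted p = 0.129) and 0.43 ± 0.38 in CKO (adjusted p = 0.356). With the length trend removed Plin3 passed the test as higher in both, at 1.47 (adjusted p = 0.000779) and 1.15 (adjusted p = 0.00682). It also passed in WT without ovulated WT 2, at 0.95 (adjusted p = 0.0463).

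The FPKM ratio of Plin3 to Plin2 within a library put these levels on a common scale. It was 1.74, 0.919, 1.57 and 2.03 in GV WT 1 to 4 and 0.957, 1.28, 0.703 and 1.03 in GV CKO 1 to 4. After ovulation it was 13.7, 13.8 and 35.9 in WT 1 to 3 and 5.32, 7.02 and 10.7 in CKO 1 to 3. All ovulated ratios were above all GV ratios, and the ovulated CKO ratios were below the ovulated WT ratios. These ratios are a description, with no test.

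**Figure D3:**
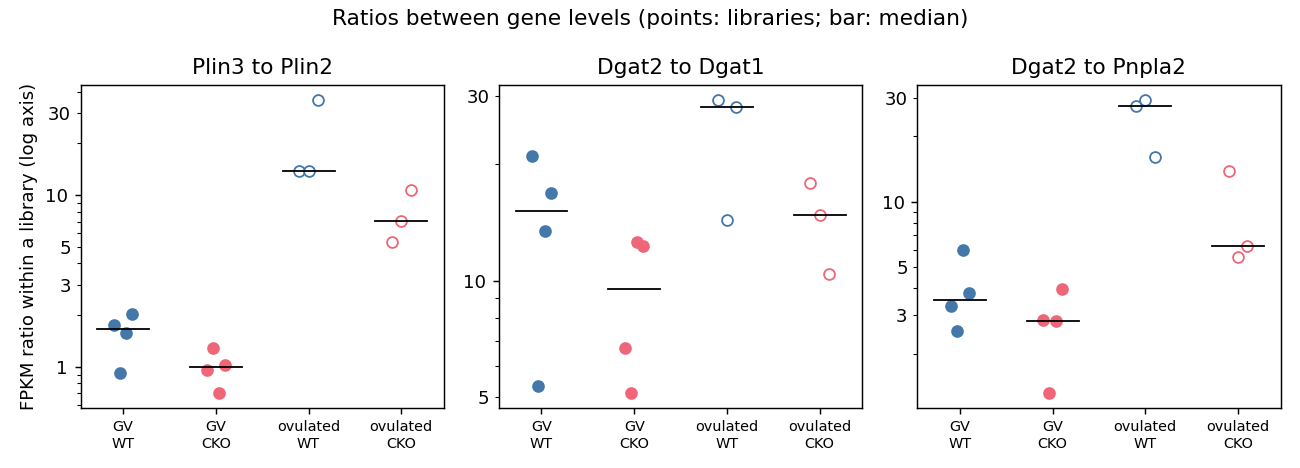
FPKM ratios within each library (log axes) of Plin3 to Plin2, Dgat2 to Dgat1 and Dgat2 to Pnpla2; points are libraries (filled: GV, open: ovulated; blue: WT, red: CKO) and the bar is the median. The median of Plin3 to Plin2 is 1.65 in GV WT and 13.8 in ovulated WT, and that of Dgat2 to Pnpla2 is 3.55 and 27.5.

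Dgat1 (chr15:76502012-76512021) and Dgat2 (chr7:99153663-99182713) encode the enzymes of the last step of triacylglycerol synthesis, which are unrelated in sequence; Dgat2 works close to the growing droplet. Dgat2 was at 51.4, 17.7, 35.9 and 50.1 CPM in GV WT and at 39.9, 29.4 and 33.1 CPM in ovulated WT. The CKO libraries were at 17.5, 11.1, 28.1 and 38.6 CPM at the GV stage and at 28.1, 28.1 and 16.2 CPM after ovulation. The stages overlapped in both genotypes, and the lowest GV values were those of WT 2, CKO 1 and CKO 2. The log2 differences were -0.28 ± 0.40 SE in WT (95% interval -1.12 to 0.56, adjusted p = 0.55) and -0.14 ± 0.40 in CKO (-0.98 to 0.70, adjusted p = 0.793), and turned positive with the length trend removed (0.47 and 0.54).

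Dgat1, the other enzyme, fell in WT. It was at 1.71, 2.23, 1.86 and 2.40 CPM in GV WT and 0.94, 1.30 and 0.823 CPM in ovulated WT, with no overlap. CKO libraries were at 1.80, 1.45, 1.55 and 1.97 CPM at the GV stage and at 1.04, 1.21 and 1.18 CPM after ovulation, again with no overlap. The change was 2.11-fold in WT (log2 -1.08 ± 0.36 SE, adjusted p = 0.0135) and did not pass in CKO (-0.71 ± 0.35, adjusted p = 0.0992). Removing the length trend turned both values positive and ended the WT call (0.12, adjusted p = 0.781; CKO 0.30). The FPKM ratio of Dgat2 to Dgat1 had medians of 15.2 in GV WT (5.33 to 21.0), 9.50 in GV CKO (5.12 to 12.6), 28.1 in ovulated WT (14.4 to 29.4) and 14.8 in ovulated CKO (10.4 to 17.9), and these ranges overlapped between stages and between genotypes.

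Pnpla2 (chr7:141455188-141460743) encodes ATGL, the lipase that takes the first fatty acid off triacylglycerol. It was at 18.5, 8.34, 7.14 and 15.7 CPM in GV WT and at 1.72, 1.17 and 2.43 CPM in ovulated WT. For CKO the values were 7.25, 10.1, 11.9 and 11.6 CPM at the GV stage and 2.39, 5.99 and 3.03 CPM after ovulation. No ovulated library reached a GV library of its genotype, and ovulated CKO 2 was the highest of the ovulated libraries. Pnpla2 fell 7.43-fold in WT (log2 -2.89 ± 0.45 SE, adjusted p = 2.27e-05), the largest fitted fall of the 9 in WT, and 2.98-fold in CKO (-1.57 ± 0.42, adjusted p = 0.00403). The FPKM ratio of Dgat2 to Pnpla2 was 2.53 to 5.98 in GV WT, 1.32 to 3.96 in GV CKO, 16.2 to 29.5 in ovulated WT and 5.58 to 13.9 in ovulated CKO. The ovulated ratios lay above the GV ratios except that 1 ovulated CKO value, 5.58 in CKO 2, was below the highest GV WT value.

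Cpt1a (chr19:3322326-3385735) and Cpt2 (chr4:107903982-107923589) encode the carnitine palmitoyltransferases of the outer and inner mitochondrial membrane. Cpt2 was at 66.0, 61.1, 69.1 and 66.1 CPM in GV WT and at 9.79, 9.19 and 22.4 CPM in ovulated WT, where WT 3 was the highest. In CKO it was at 37.9, 34.0, 58.6 and 60.6 CPM at the GV stage and at 11.2, 13.2 and 9.57 CPM after ovulation. The stages did not overlap. Cpt2 fell 5.02-fold in WT (log2 -2.33 ± 0.34 SE, adjusted p = 1.16e-05) and 4.68-fold in CKO (-2.23 ± 0.34, adjusted p = 3.61e-05).

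Cpt1a, the liver form of the entry enzyme and the step that malonyl-CoA blocks, was close to the limit of counting. Its deposited counts were 8, 18, 9 and 5 in GV WT and 13, 12, 8 and 7 in GV CKO. After ovulation they were 4, 5 and 1 in WT and 2, 3 and 9 in CKO. In CPM no ovulated library overlapped the GV libraries of its genotype, and CKO 3 was the highest ovulated one. The log2 fold change was -1.89 ± 0.74 SE in WT (adjusted p = 0.0307) and -1.55 ± 0.71 in CKO (adjusted p = 0.0728). With one library left out, the WT call ended without GV WT 1 (adjusted p = 0.0510), GV WT 3 (0.0503), ovulated WT 1 (0.0604) or ovulated WT 3 (0.0954), and the CKO value passed without ovulated CKO 3 (-2.49, adjusted p = 0.0195).

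Acadvl (chr11:70010183-70015428) encodes the very long-chain acyl-CoA dehydrogenase and Hadha (chr5:30119423-30154980) the alpha subunit of the trifunctional protein, both bound to the inner mitochondrial membrane. Acadvl was at 4.50, 1.45, 4.16 and 4.03 CPM in GV WT and at 0.746 and 0.848 CPM in ovulated WT 1 and 2. In ovulated WT 3 its count was 0, which allows up to 3 counts or 0.107 CPM, counting error only. The CKO values were 1.77, 1.82, 2.31 and 3.17 CPM at the GV stage and 1.04, 0.742 and 0.415 CPM after ovulation. Stages did not overlap, although GV WT 2 was near the ovulated libraries. Acadvl fell 6.99-fold in WT (log2 -2.81 ± 0.71 SE, adjusted p = 0.00198) and 3.41-fold in CKO (-1.77 ± 0.67, adjusted p = 0.0333). With one library left out, the CKO call ended without GV CKO 3 (adjusted p = 0.0525), GV CKO 4 (0.0806), ovulated CKO 2 (0.0667) or ovulated CKO 3 (0.114). Among other settings it also ended with the length trend removed (-1.07, adjusted p = 0.168).

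Hadha was at 65.5, 28.9, 56.8 and 69.0 CPM in GV WT and at 13.6, 12.2 and 12.5 CPM in ovulated WT. CKO values were 21.5, 25.4, 35.8 and 57.7 CPM at the GV stage and 18.6, 12.1 and 13.1 CPM after ovulation. The ovulated libraries lay close together and below all GV libraries, of which WT 2, CKO 1 and CKO 2 were the lowest. Hadha fell 4.59-fold in WT (log2 -2.20 ± 0.38 SE, adjusted p = 6.16e-05) and 2.67-fold in CKO (-1.42 ± 0.36, adjusted p = 0.0032). Exons of Acadvl overlap those of Dvl2, and exons of Hadha those of Garem2, on the opposite strand in GENCODE M21, and the sources do not say whether counting used strand.

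Stored oocyte transcripts are known to gain or lose their poly(A) tails during meiotic maturation, in part through cytoplasmic polyadenylation elements near the polyadenylation signal. The annotated 3′ ends of all 9 genes were searched, and those of Dgat1 and Cpt1a are not printed. The lines give 30 bases at or near the transcript end, 5′ to 3′ on the transcript strand (GENCODE M21, GRCm38), with 1 hexamer in capitals, the last AATAAA or, where there was none, ATTAAA; other copies upstream of it, as in Plin3, stay in lower case.
Plin2: ggacccaataacattcataactggtagagc
Plin3: acgtaaaataaataAATAAAgctttaaagt
Pnpla2: tgaggcaaagtagagttcaccatggtttcc
Dgat2: tattcctagactAATAAAtggaaacaagaa
Cpt2: tgtttaaatagaAATAAAcccagtgttgct
Acadvl: tattgccttaacAATAAAttttctaccaag
Hadha: ccttgaggtttcATTAAAcaactgtgagaa
Plin2 and Pnpla2 showed neither hexamer in the last 100 bases of the annotated transcript, Hadha showed ATTAAA and the other 6 showed AATAAA. On the transcript strand, one or the other hexamer was present in 82.0% of the 12199 genes tested that had a matched 3′ UTR of at least 100 bases. None of the 9 genes held TTTTAT or TTTTAAT, the letters of the element searched here, in the same window, beside 20.0% of those genes. Genes with these letters had a median log2 change from GV to ovulated WT of 0.76 and genes without them one of -0.35, with the length trend not removed. The letters were absent from the genes that fell and from Plin3 and Dgat2 alike, and a link to the changes was not tested. The windows come from the annotation, and the ends used in these oocytes were not measured.

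In GV oocytes none of the 9 genes was called between CKO and WT, and Cpt1a was too low to be tested. Of all 12298 genes tested, 0.0163% were called, 2 in all, 1 of them Mff. Of the 8 tested genes 7 had lower means in CKO, beside 47.1% of all genes, and the median log2 fold change was -0.53 beside 0.03 over all genes. None of the 8 had an unadjusted p under 0.05, beside 6.66% of all genes, none was called by DESeq2, and none had libraries that did not overlap between genotypes, beside 4.55% of all genes. The values were -0.73 ± 0.43 SE for Dgat2, -0.68 ± 0.37 for Hadha, -0.67 ± 0.39 for Acadvl, -0.59 ± 0.36 for Plin3, -0.47 ± 0.24 for Cpt2, -0.32 ± 0.34 for Pnpla2 and -0.29 ± 0.27 for Dgat1, with adjusted p from 0.763 to 0.861. Plin2 alone was positive, at 0.20 ± 0.30, and its sign turned without GV CKO 3 (-0.02). Without WT 2, CKO 1 and CKO 2, the libraries that stood apart, the 7 stayed negative, from -0.19 for Cpt2 and Dgat1 to -0.64 for Acadvl, and Plin2 was at 0.45. The 95% intervals, such as -1.68 to 0.22 for Dgat2 and -0.99 to 0.05 for Cpt2, held 0 for all 8.

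In ovulated oocytes again none of the 8 genes tested was called, beside 7.84% of 12010 genes, of which 774 were higher and 168 lower in CKO (560 higher of 842 called with the length trend removed). The largest difference was that of Pnpla2, 2.07-fold higher in CKO by the fit (log2 1.05 ± 0.51 SE, adjusted p = 0.228), with the lowest CKO library (2.39 CPM) just below the highest WT library (2.43 CPM). It was 0.58 (adjusted p = 0.681) without CKO 2, the library with the lowest share of counts in its 100 most abundant genes. Plin3 was lower in CKO at -0.77 ± 0.35 (unadjusted p = 0.0450, adjusted p = 0.203), and Plin2 had a positive value of 0.67 ± 0.62 (adjusted p = 0.565). Dgat2 was the 1 gene whose genotypes did not overlap, at 29.4 to 39.9 CPM in WT and 16.2 to 28.1 CPM in CKO, beside 28.5% of all genes without overlap. Its log2 value was -0.54 ± 0.29 (adjusted p = 0.285), and it was called with sample quality weights in limma (-0.82, adjusted p = 0.0428). Acadvl (0.44 ± 0.98), Cpt2 (-0.34 ± 0.38), Hadha (0.16 ± 0.31) and Dgat1 (0.13 ± 0.61) gave adjusted p from 0.652 to 0.928. The signs of Acadvl and Cpt2 turned without WT 3, which holds the 0 count of Acadvl and the highest Cpt2 level. Plin3 was the 1 gene of the 8 with an unadjusted p under 0.05, beside 23.3% of all genes, and DESeq2 called none.

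The genotype effects of the stages were compared by the interaction term, for which none of the 9 genes was called, beside 3.26% of 13199 genes; DESeq2 called none either. Pnpla2 had the largest difference of effects, 1.32 ± 0.57 SE on the log2 scale (unadjusted p = 0.0338, the 1 such value under 0.05, beside 15.5% of all genes, adjusted p = 0.266). Acadvl was at 1.04 ± 0.93 and Hadha at 0.78 ± 0.50, and the median was 0.37 over the 9 genes and -0.07 over all genes. In 8 of the 9 the value was positive, and all genes had 53.7% negative values. A smaller fall between stages in CKO than in WT was therefore not shown for any of the 9 at this threshold, and the passing of 7 tests in WT and 5 in CKO is no test of a difference.

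The wider pathway was described with 6 lists of 93 genes in all, which include the 9 and were also chosen with earlier results known. Of the 93, 3 are not analysed here. Between stages in WT, 46 of 75 tested genes were called, 31 lower and 15 higher, beside 66.4% of all genes, and the median was -0.65 beside -0.17. In CKO it was 38 of 75, 26 lower and 12 higher, beside 54.4%, with a median of -0.55 beside -0.19. The carnitine shuttle had all 6 tested genes called in WT, 5 lower and 1 higher, and 2 of 6 called in CKO, both lower. Over all genes 36.2% were lower and 30.3% higher in WT, and 31.2% lower and 23.2% higher in CKO. Slc25a20, the carnitine-acylcarnitine carrier, fell from 6.49 ± 0.35 to 1.03 ± 0.75 CPM in WT (log2 -2.74 ± 0.55 SE, adjusted p = 0.000283). Cpt1c, the form of the entry enzyme known from brain, fell by 3.70 ± 1.09 (adjusted p = 0.00634) from 30 to 39 counts to 0 to 8 counts. The 1 higher gene, Slc22a5, the plasma membrane carnitine transporter, was named after its value was seen and rose by 0.75 ± 0.25 (adjusted p = 0.0141).

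Of 21 beta-oxidation genes, 12 fell and 3 rose in WT, and 10 fell and 2 rose in CKO. In either direction, the 15 called in WT and 12 in CKO are near the shares of all genes, 66.4% and 54.4%. By direction they are less alike: over all genes 36.2% were lower and 30.3% higher in WT, and 31.2% lower and 23.2% higher in CKO. The list medians were -1.10 in WT and -1.17 in CKO, beside -0.17 and -0.19 over all genes. The 3 with the smallest p in both were Acot13, a mitochondrial thioesterase, Hsd17b10, a hydroxyacyl-CoA dehydrogenase of short and branched chains, and Etfb, a subunit of the electron transfer flavoprotein. Acot13 fell from 90.1 ± 18.6 to 3.28 ± 0.39 CPM in WT (log2 -4.86 ± 0.42 SE, adjusted p = 5.57e-08). The fall of Hsd17b10 was -4.36 ± 0.41 (adjusted p = 9.55e-08) and that of Etfb -3.52 ± 0.35 (adjusted p = 1.63e-07). The 3 that rose in WT, named after their values were seen, were Acadm, the medium-chain acyl-CoA dehydrogenase (34.5 ± 1.63 to 107 ± 15.0 CPM, log2 1.55 ± 0.24), the thioesterase gene Acot2 (2.23 ± 0.35) and Etfa, which encodes the partner subunit of Etfb (0.71 ± 0.26).

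Lipolysis had 3 of 7 genes lower in both genotypes and 1 higher in WT, beside 36.2% of all genes lower in WT and 31.2% in CKO, which for so few genes is a like share. Abhd5, the activator of the lipase that Pnpla2 encodes, fell from 37.9 ± 1.98 to 11.9 ± 0.56 CPM in WT (log2 -1.75 ± 0.22 SE, adjusted p = 2.49e-06). Abhd12, a lysophospholipid and monoacylglycerol hydrolase, fell by 4.22 ± 0.45 (adjusted p = 4.13e-07). Among 20 genes of glyceride and sterol ester synthesis 5 fell and 4 rose in WT, and 4 fell and 4 rose in CKO, so that 9 and 8 of the 20 were called beside 66.4% and 54.4% of all genes. Agpat2, which acylates lysophosphatidic acid, fell from 55.2 ± 7.81 to 0.297 ± 0.155 CPM in WT (log2 -7.59 ± 0.71, adjusted p = 1.08e-07), while Agpat1, which has the same activity, rose from 3.47 ± 2.00 to 20.9 ± 1.20 CPM (2.52 ± 0.39, adjusted p = 2.24e-05). Gpat4, a glycerol-3-phosphate acyltransferase, rose by 1.35 ± 0.28 (adjusted p = 0.000423).

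Of 8 genes of the droplet coat and growth list 3 fell and 2 rose in WT, and 3 fell and 1 rose in CKO, a share near the 66.4% and 54.4% of all genes called. Hsd17b13, a droplet-bound dehydrogenase, rose from 17.3 ± 2.48 to 61.5 ± 12.1 CPM in WT (log2 1.76 ± 0.24 SE, adjusted p = 7.13e-06), and Pcyt1a, the rate-limiting enzyme of phosphatidylcholine synthesis, fell by 0.99 ± 0.23 (adjusted p = 0.000928). Among 14 regulators 3 fell and 4 rose in WT, and 4 fell and 5 rose in CKO, or 7 and 9 of 14 called beside the same 66.4% and 54.4%. Prkaa1, a catalytic subunit of the AMP-activated kinase, fell from 100.4 ± 4.80 to 6.72 ± 2.01 CPM in WT (log2 -3.98 ± 0.31, adjusted p = 2.08e-08). The other catalytic subunit gene, Prkaa2, fell by 2.59 ± 0.37 (adjusted p = 1.07e-05). Mlycd, whose product degrades malonyl-CoA, fell from 10.8 ± 1.91 to 0.281 ± 0.356 CPM (-5.32 ± 0.79, adjusted p = 1.43e-05).

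**Figure D4:**
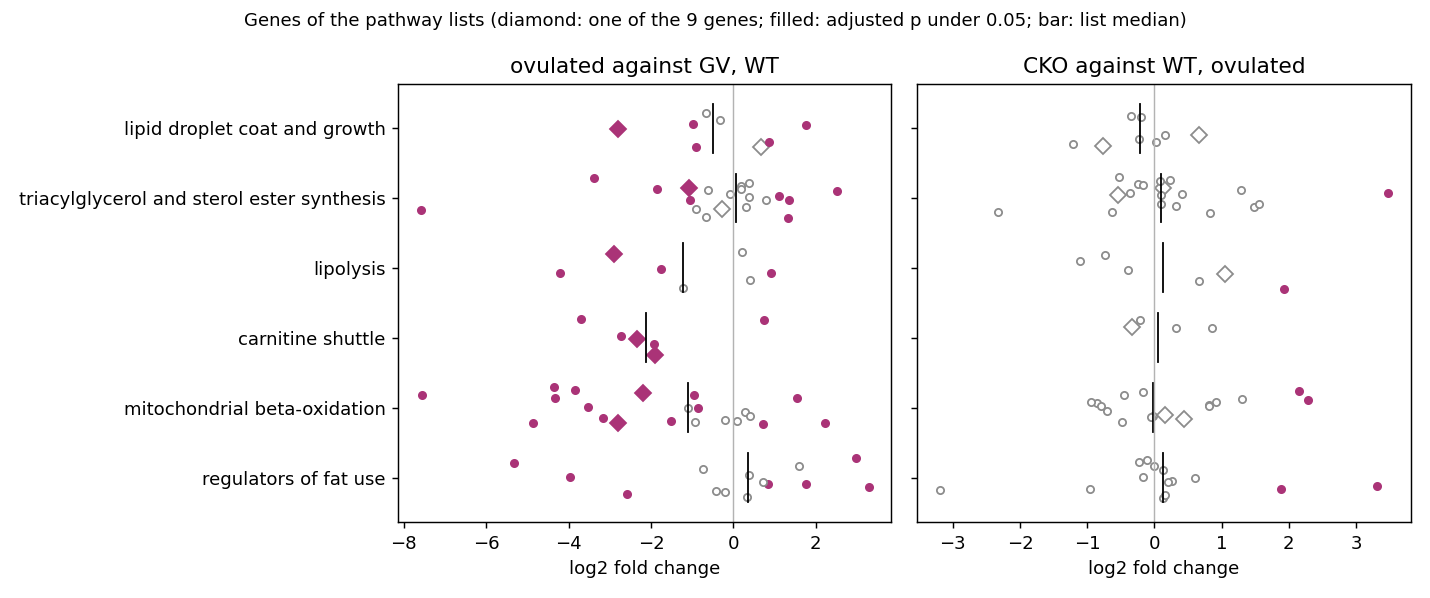
Log2 fold changes of the tested genes of the 6 pathway lists between stages in WT (left) and between genotypes after ovulation (right); diamonds are the 9 genes, filled symbols have adjusted p under 0.05 and bars are list medians. In WT the carnitine shuttle has a median of -2.12 and beta-oxidation one of -1.10, and on the right all 6 filled symbols lie above 0 and none is a diamond.

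Between genotypes, none of the 70 tested pathway genes was called in GV oocytes, beside 0.0163% of all genes, and DESeq2 also called none. Of the 70, 3 had an unadjusted p under 0.05, beside 6.66% of all genes. After ovulation 6 of 67 were higher in CKO and none was lower, beside 6.44% of all genes called higher and 1.40% called lower, with a median of 0.09 beside -0.001. Acot13 was at 3.28 ± 0.39 CPM in WT and 15.0 ± 10.5 CPM in CKO (log2 2.15 ± 0.45 SE, adjusted p = 0.00901). Abhd12 was at 3.83 ± 0.34 and 15.0 ± 9.66 CPM (1.92 ± 0.43, adjusted p = 0.0120). The others, each of which had counts of at most 47 in any ovulated WT library, were Agpat2 (3.48 ± 0.80, adjusted p = 0.0156), Hsd17b10 (2.29 ± 0.62, adjusted p = 0.0357), Mlycd (3.31 ± 0.96, adjusted p = 0.0459) and the nuclear receptor gene Rxra (1.89 ± 0.56, adjusted p = 0.0496). The count was 0 without CKO 2, 1 without WT 3, 2 without WT 2 and 11 without CKO 1, so single libraries decided it. For the interaction 2 of 75 were called, Agpat2 (3.70 ± 0.78, adjusted p = 0.0163) and Abhd12 (2.45 ± 0.54, adjusted p = 0.0204), beside 3.26% of all genes; the count was 1 without ovulated WT 3, 1 without ovulated CKO 2, 5 without ovulated CKO 1 and 4 without ovulated CKO 3.

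For each of the 9 genes the gene with the most similar profile over the 14 libraries was found by the root mean square distance of centred log2(CPM + 1) values, among 8143 or 8144 genes with a mean of at least 5 CPM. Cpt2 was closest to Ap1m1 (distance 0.22 log2 units), Hadha to Cpeb1 (0.26), Plin2 to Cpsf3 (0.27), Pnpla2 to Rpl13 (0.24) and Acadvl to Trappc9 (0.22). Dgat2 was closest to Mcrs1 (0.16), Plin3 to 2300002M23Rik (0.27), Dgat1 to Mis12 (0.16) and Cpt1a to Fsd1l (0.13). The added 1 CPM compresses the profiles of genes as low as Cpt1a, Dgat1 and Acadvl, and the low ovulated values of Plin2 and Pnpla2.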

How the data were processed

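Counts and FPKM per gene and library were deposited in separate tables for the stages. The count columns, read counts per the file headers, held fractional values in 17.6% (GV) and 18.3% (ovulated) of nonzero cells at a tolerance of 0.001 and are treated as the authors' estimated counts, not normalised. FPKM, per the file headers, are fragments scaled by the authors to transcript length and mapped fragments. Per the labels' protocols, cDNA was made with SMART-SeqII and preamplified by PCR, with no mention of molecular identifiers. The counting software and read aligner were not given in the sources used here, while mm10 was the build per the submitters' processing notes.

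After rounding, the counts were fitted in R 4.3.3 by the robust quasi-likelihood test of edgeR 4.0.16, with TMM normalisation and filterByExpr on the groups; p-values were adjusted by Benjamini-Hochberg over all genes tested, and a gene was called at adjusted p under 0.05. Each stage was fitted alone for genotype, and all 14 libraries together, on the 16196 genes in both tables, for stage and for the interaction. The SE is the log2 fold change divided by the root of F, and 95% intervals use the t distribution with the degrees of freedom of the test. The script was tested on simulated data. Alternatives were RLE size factors, no filter or a mean of at least 10 CPM, DESeq2 1.42.0, limma 3.58.1 with quality weights or on log2(FPKM + 1) and log2(FPKM + 0.1), a replicate block, removal of the length trend, and leaving out libraries. Deposited totals were 26575593 to 28847424 counts per library.

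Named were the 9 genes, Mff, up to 3 called genes of smallest p per pathway list and comparison, and the nearest gene of each of the 9. Outside this rule, Slc22a5, Acadm, Acot2 and Etfa were named after their values were seen. The members and lists were chosen with earlier results of these data known. Sequences and overlaps come from GENCODE M21 and coordinates from RefSeq (GRCm38.p6).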

Additional observations from a re-analysis of the deposited data

Results flagged for a closer look

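Over the 9 genes in the GV groups of 4 libraries, 18 cases in all, 1 group held a library far from the others: Acadvl was at 1.45 CPM in GV WT 2, while the other 3 GV WT libraries were at 4.03 to 4.50 CPM. Its gap to the nearest library exceeded Dixon's 95% limit for 4 values, and chance gives about 1 in 20 such cases. The flag rests on CPM: in FPKM GV WT 2 was at 0.87 and the others at 1.55 to 1.82, a gap within that limit. GV WT 2 is also one of the 3 GV libraries that stood apart on the first principal component, with 38.1% of counts in its 100 most abundant genes. Without it the log2 difference of Acadvl between GV CKO and GV WT was -0.92, and it was not called.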

How the results depend on the processing

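None of the 9 genes was called between genotypes or in the interaction under any alternative run, except Dgat2 in ovulated oocytes with limma's quality weights, where 1 was called. The stage falls of Plin2, Pnpla2, Cpt2 and Hadha in both genotypes, and of Acadvl in WT, kept their direction and their call under every alternative in which the gene was tested. With a mean of at least 10 CPM required, 2 of the 9 were called in each genotype, since fewer genes were tested, and the genes called were 5155 in WT, 4458 in CKO and 506 between ovulated genotypes. Leaving out one library at a time, 6 to 8 of the 9 were called between stages in WT and 4 to 5 in CKO. The Cpt1a call in WT ended with no filter (adjusted p = 0.0525) and without ovulated WT 3 and CKO 2 (0.0743), and Cpt1a was called in CKO with the length trend removed (adjusted p = 0.0387).

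Counts over all genes moved more. Between GV genotypes 4 genes were called with no filter, 57 with DESeq2, 82 with quality weights, 4 with the length trend removed, 63 without WT 2, CKO 1 and CKO 2, 4 in one fit over all 14 libraries, and 2 to 5 leaving out one library. Between ovulated genotypes it was 1593 with DESeq2, 1856 with quality weights, 563 on log2(FPKM + 1), 235 without WT 3 and CKO 2, 1595 in one fit and 341 to 1652 leaving out one library. For the interaction it was 889 with DESeq2, 229 without the 3 GV libraries, 157 without the ovulated pair, and 129 to 1006 leaving out one library. The causes of these shifts were not tested.

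The called fall of Dgat1 in WT changed sign with the length trend removed, as did values not called in the main fit, under the settings below. In the ovulated genotype comparison Plin2 was -0.10 and Cpt2 5.3e-05 with quality weights, Dgat1 -0.025 with the length trend removed, and Dgat1 -0.017, Cpt2 0.13 and Acadvl -0.13 without WT 3 and CKO 2. Between stages Dgat2 in CKO was 0.019 with no filter. In the interaction Plin2 was -0.44 and Dgat2 -0.14 with quality weights, Dgat2 -0.11 and Cpt2 -0.18 without the 3 GV libraries, and Plin3 0.018 without the ovulated pair. With the length trend removed Dgat1 was 0.12 in WT and 0.30 in CKO between stages, and Dgat2 0.47 and 0.54. Leaving out one library, the values ran from -0.019 to 0.36 for Plin2 between GV genotypes, and between ovulated genotypes from -0.57 to 0.24 for Cpt2, -0.13 to 0.93 for Acadvl and -0.062 to 0.29 for Hadha. Dgat2 ran from -0.37 to 0.21 between stages in CKO. In the interaction the ranges were -0.092 to 0.49 for Dgat2, -0.12 to 0.75 for Cpt2, -0.52 to 0.078 for Plin3, -0.060 to 0.99 for Plin2 and -0.59 to 0.74 for Cpt1a.

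The labels number replicates alike in both genotypes and stages. Deviations of same-numbered WT and CKO libraries correlated at -0.34 to 0.45 at the GV stage and at 0.02 to 0.20 after ovulation. Libraries of different numbers were not compared in this way, so whether the number marks a shared batch was not tested. With the number as a replicate block 1630 genes were called between ovulated genotypes and none of the 9; between stages Dgat2 became 0.019 in WT and 0.23 in CKO, and the call of Acadvl in CKO ended (adjusted p = 0.0602).

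Precision was limited by counts of 1 to 9 for Cpt1a and 0 to 34 for Acadvl in ovulated oocytes, by 3 or 4 libraries per group, and by the separate tables of the stages. The SMART-SeqII cDNA was amplified by PCR, so counting limits cover counting error only.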
